A study of Mus musculus with 4 samples.

Results

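The bone morphogenetic protein (BMP) signalling genes of the blood vessel lining and the Id genes they switch on were followed in thigh muscle of mice with a narrowed iliac vein. The set was fixed by name, from the GENCODE mouse symbols on mm10, with earlier results of these data known. It holds 10 of the 55401 genes in the files. These are the receptors Acvrl1, Eng and Bmpr2, the SMAD proteins Smad1, Smad9, Smad6 and Smad7, and Id1, Id2 and Id3. Poly(A) RNA was sequenced from semimembranosus muscle (a hamstring) of C57BL/6 mice aged 8 weeks. In both groups the left external iliac vein had been ligated over a 30-gauge needle to leave a stenosis, and daily treatment was given into the stomach. The IVS group received saline (2 libraries) and the IVS_diosmin group received 40 mg of diosmin, a flavonoid taken for venous disease, per kg each day (2 libraries). No unoperated mouse was compared, so the levels have no healthy reference. Whether a group's replicates came from separate animals is not stated in the labels, so a p-value here speaks only of the spread among these 4 samples, and that spread may be technical.

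BMPs are secreted proteins that bring together type I and type II receptor kinases on the cell surface. The type I receptor phosphorylates a SMAD of the BMP class, which joins SMAD4, enters the nucleus and switches on targets, among them the Id genes. Endothelial cells use a receptor set of their own, made of ALK1 (Acvrl1), BMPR2 and the co-receptor endoglin (Eng), and losses of these human genes cause inherited vessel malformation or pulmonary hypertension. Id proteins carry a helix-loop-helix but no DNA-binding stretch, and they hold bHLH factors off DNA; in muscle, Id proteins restrain the myogenic factors in the same way.

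Id1 and Id3 fell with diosmin, and no member was called higher. Both calls depended on the fit: with the replicate number as a block neither passed (adjusted p = 0.125 and 0.0950 in edgeR). Without 1 library the log2 values ranged from -2.38 to -1.28 for Id1 and from -1.44 to -0.90 for Id3. Id1 was 3.80-fold and Id3 2.28-fold higher in the IVS libraries. The receptors and the SMADs did not pass the test in either direction, with Eng and Smad1 closest to it on the lower side. Beyond the set, 1 of 38 tested genes of the wider BMP pathway fell, the ligand Bmp6, and none rose. Over all tested genes, 2.96% were called in either direction, so this count is near that share. Of 18 endothelial markers 8 fell in the same libraries, against 1.78% of all tested genes called lower. The log2 values of Id3 and Bmp6 lay within the range of these markers, and that of Id1 lay below it.

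These calls come from edgeR's quasi-likelihood test, fitted on all 13533 genes with enough counts, with p-values adjusted over all of them (Benjamini-Hochberg) and a threshold of 0.05. Of the 10 members 9 had enough counts to be tested, and 2 of these passed, both lower. Over all tested genes, 2.96% passed in either direction, 1.78% were called lower and 1.17% were called higher. Both diosmin libraries lay below both IVS libraries in 6 of the 9 tested members, against 24.1% of all tested genes, and above them in 1, against 23.4%. The median log2 fold change (IVS_diosmin minus IVS, as for every log2 value below) was -0.75 over the 9 members and 0.0064 over all tested genes. Members were chosen with earlier results of these data known, so setting them beside all tested genes is a description and not a test. Levels are given as CPM, counts scaled to a common library size after TMM, a correction for library composition.

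**Figure D1:**
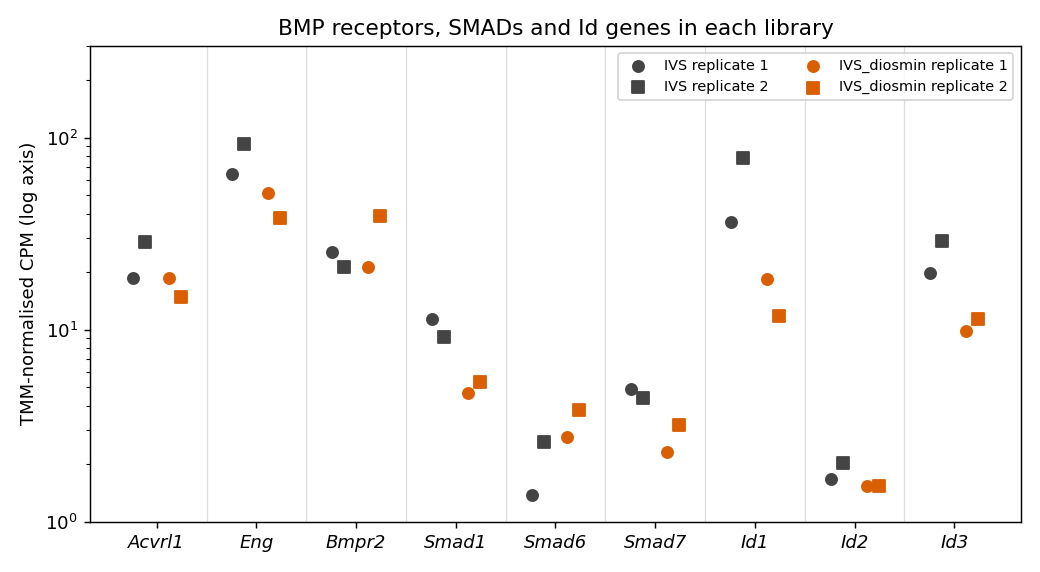
TMM-normalised CPM of the 9 tested members in each of the 4 libraries, on a log axis, with IVS in grey and IVS_diosmin in orange, replicate 1 as circles and replicate 2 as squares. The IVS squares and circles of Id1 and Id3 sit above both diosmin points, while those of Acvrl1 and Bmpr2 overlap with them.

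Gene counts summed to between 13056650 and 15324354 per library. Fast fibre genes, the mark of this muscle, summed to between 112724 and 129187 CPM over 10 genes. Within that list 6 genes had lower and 4 higher values with diosmin, and 1, Myh1, was called, higher (log2 1.17, adjusted p = 0.0261 in edgeR). Among 10 slow fibre genes 9 rose, and the list went from 87.9 and 99.9 CPM in all to 3935 and 1585 CPM. An rRNA locus, CT010467.1, took 4.14% and 3.80% of gene counts in IVS and 1.16% and 0.936% with diosmin, and Rn7sk, a nuclear RNA without a poly(A) tail, was at 34.6 and 33.5 CPM against 11.9 and 5.97 CPM. IVS replicate 2 stood apart in nerve and fat markers: its 6 Schwann cell genes summed to 281 CPM, against 42.9 to 127 CPM in the other libraries, and its 6 adipocyte genes to 32.1 CPM, against 6.78 to 15.4 CPM. Mitochondrial genes took 31.5% and 38.5% of gene counts in IVS and at least 40.7% in each diosmin library, and reads without a unique position made up 37.7% and 38.8% of each file against 45.6% and 43.6%. The part of these differences in the results, the fall of Id1 and Id3 included, was not tested.

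Among the receptors, Eng (mm10 chromosome 2, 32646595 to 32682669, plus strand) codes for endoglin, the co-receptor that presents ligand to ALK1. IVS replicates 1 and 2 held 64.6 and 92.2 CPM of Eng, and the IVS_diosmin replicates 51.7 and 38.3 CPM. The groups did not overlap, but the difference missed the threshold (log2 -0.80 ± 0.24 SE, adjusted p = 0.0972). DESeq2, run as a second tool, placed it just past the threshold (adjusted p = 0.0466), and so did edgeR without a filter on low counts (adjusted p = 0.0115). Without IVS replicate 2 the log2 difference was -0.53 (adjusted p = 0.537). Exons of Eng overlap those of Fpgs on the other strand over 61 of 4048 bases; Fpgs was at 10.8 to 14.4 CPM.

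Acvrl1 (chromosome 15, 101128522 to 101145336, plus strand), the type I receptor ALK1, had 18.6 and 28.4 CPM in IVS and 18.7 and 14.9 CPM with diosmin. IVS replicate 1 and diosmin replicate 1 had nearly the same level, so the groups touched, and the difference did not pass (log2 -0.49 ± 0.25 SE, adjusted p = 0.368). Exons of Acvrl1 overlap those of Gm16031 on the other strand over 127 of 4265 bases. Gm16031 had 1 count in each IVS library and 0 in each diosmin library. Bmpr2 (chromosome 1, 59763400 to 59879014, plus strand), the type II receptor, was at 25.2 and 21.3 CPM in IVS and at 21.2 and 39.0 CPM with diosmin. Diosmin replicate 2 alone carried the higher mean: the log2 difference was 0.37 ± 0.28 (SE, adjusted p = 0.561) with all libraries and -0.15 without that one.

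The receptor window that could be read upstream of a start site without touching an annotated exon, and whose gene came nearest to the threshold, was that of Eng. The 250 bases before its RefSeq start are shown here to give the sequence context of the co-receptor gene, with matches to CAGAC, a SMAD-binding box, in capitals on either strand (RefSeq, GRCm38.p6, chr2:32646345-32646594, plus strand, 5′ to 3′).
Eng upstream: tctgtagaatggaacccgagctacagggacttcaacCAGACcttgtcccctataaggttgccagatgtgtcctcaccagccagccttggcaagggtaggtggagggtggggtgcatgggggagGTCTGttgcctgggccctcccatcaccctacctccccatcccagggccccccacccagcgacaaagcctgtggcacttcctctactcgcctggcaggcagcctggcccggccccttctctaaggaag
This window held 2 matches to CAGAC and none to GGCGCC, the GC-rich element bound by BMP-class SMADs; the letters of these motifs do not overlap. Of 32851 such windows over all genes, 42.2% held CAGAC and 9.59% held GGCGCC. Such windows matched for 7 of the 10 members. Those of Bmpr2 and Id3 lay wholly in exons annotated in GENCODE (250 of 250 bases), and those of Id2 and Smad1 in part (161 and 90 bases), so they are transcribed sequence rather than upstream DNA for some transcripts. GGCGCC occurred once each in those of Bmpr2, Smad9 and Id2 and was not in those of Eng, Smad1, Smad6 and Id3. CAGAC occurred 2 times in that of Id3 as in that of Eng, and in no other member's. A match is a description of letters, not of binding.

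Among the SMADs that BMP receptors phosphorylate, Smad1 (chromosome 8, 79338395 to 79399518, minus strand) was at 11.4 and 9.18 CPM in IVS and at 4.70 and 5.35 CPM with diosmin. The 4 libraries did not overlap between groups, and the difference missed the threshold (log2 -1.03 ± 0.31 SE, adjusted p = 0.100). It kept its sign in every fit without 1 library, with log2 values from -1.18 to -0.87. Smad5, the close relative of Smad1 in the same role and not a member, was at 10.7 and 8.37 CPM in IVS and at 11.6 and 8.33 CPM with diosmin (log2 0.06 ± 0.29 SE, adjusted p = 0.956). Smad9, the third SMAD of this class, had 1 count in diosmin replicate 1 and 0 counts in the other libraries. A count of 0 allows a level of up to 0.172 to 0.244 CPM (3 counts, by library, counting error only), so Smad9 was not detectable at this depth.

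Smad6 and Smad7 code for inhibitory SMADs, which BMP signalling induces and which then block the receptors. Their values lay on opposite sides. Smad6 (chromosome 9, 63953076 to 64022059, minus strand) had 24 and 32 counts in IVS and 36 and 55 with diosmin, or 1.37 and 2.60 CPM against 2.78 and 3.82 CPM. It was the 1 member whose diosmin libraries both lay above the IVS libraries, by a narrow gap, and it did not pass (log2 0.75 ± 0.50 SE, adjusted p = 0.501). Smad7 was at 4.92 and 4.39 CPM in IVS and at 2.31 and 3.19 CPM with diosmin. Its groups did not overlap, and it did not pass either (log2 -0.75 ± 0.40 SE, adjusted p = 0.381). The opposite direction of the pair was not tested.

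**Figure D2:**
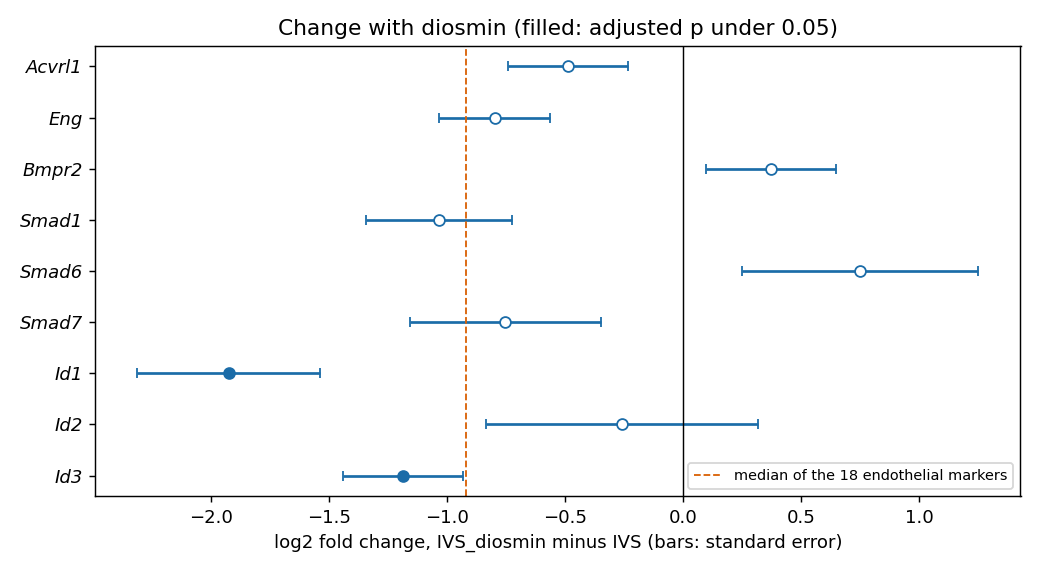
Log2 fold change of IVS_diosmin minus IVS for the 9 tested members (edgeR, all 4 libraries), with standard errors as bars, filled points for adjusted p under 0.05 and a dashed line at the median of the 18 endothelial markers (-0.92). Id1 and Id3 are the filled points, at -1.93 and -1.19, and Bmpr2 and Smad6 lie to the right of 0.

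Id1 (chromosome 2, 152736251 to 152737410, plus strand) is the most used readout of BMP signalling in endothelium. IVS replicates 1 and 2 held 36.4 and 78.0 CPM of Id1 (637 and 960 counts), and IVS_diosmin replicates 1 and 2 held 18.4 and 11.7 CPM (238 and 169 counts). Both diosmin libraries lay below both IVS libraries, although the IVS libraries differed from each other by more than the diosmin ones. The mean went from 57.2 ± 29.4 to 15.0 ± 4.7 CPM (SD, n = 2 each), and Id1 fell by 1.93 ± 0.39 on the log2 scale (SE, adjusted p = 0.0433 in edgeR). Without IVS replicate 2, the library with the highest Id1 and the highest Schwann cell and adipocyte sums, the log2 difference was -1.28 and missed the threshold (adjusted p = 0.0970). It missed it as well without IVS_diosmin replicate 1 (-2.28, adjusted p = 0.156) and without IVS_diosmin replicate 2 (-1.65, adjusted p = 0.240), and passed without IVS replicate 1 (-2.38, adjusted p = 0.000787).

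Id3 (chromosome 4, 136143497 to 136145755, plus strand), which shares most roles of Id1 in endothelium, was at 19.7 and 28.9 CPM in IVS and at 9.87 and 11.4 CPM with diosmin, from 345, 355, 128 and 164 counts. The 2 groups stood clear of each other. Its mean went from 24.3 ± 6.4 to 10.6 ± 1.1 CPM (SD, n = 2 each), and it fell by 1.19 ± 0.25 on the log2 scale (SE, adjusted p = 0.0282 in edgeR). The call was lost without IVS replicate 2 (-0.90, adjusted p = 0.278), without IVS_diosmin replicate 1 (-1.09, adjusted p = 0.243) and without IVS_diosmin replicate 2 (-1.31, adjusted p = 0.0612), and held without IVS replicate 1 (-1.44, adjusted p = 0.0155). So the count of members past the threshold was 2 with all libraries and without IVS replicate 1, and 0 without any of the other 3; a group left with 1 library was assumed to vary like the other group.

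Id2 (chromosome 12, 25093799 to 25097140, minus strand) was scarce, with 29 and 25 counts in IVS and 20 and 22 with diosmin. These were 1.66 and 2.03 CPM against 1.54 and 1.53 CPM, a gap smaller than that between the IVS libraries. The log2 difference was -0.26 ± 0.57 (SE, adjusted p = 0.878), an error wide enough to hold the value of Id3 within 2 standard errors. Whether Id1 or Id3 changed more than Id2 was not tested.

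Reads are assigned to these relatives by sequence, so a stretch is printed to show how alike the letters of Id2 and Id3 are. Bases identical in both are in capitals (GENCODE M21 transcripts, 5′ to 3′). Shown are the 120 bases that are most alike among windows starting on a codon in both coding sequences. They run from coding base 109 to 228 of Id2 and from 124 to 243 of Id3, counted from the first base of the start codon.
Id2 coding: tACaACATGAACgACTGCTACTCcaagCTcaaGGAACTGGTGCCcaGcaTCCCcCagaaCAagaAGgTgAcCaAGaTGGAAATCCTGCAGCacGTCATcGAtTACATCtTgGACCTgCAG
Id3 coding: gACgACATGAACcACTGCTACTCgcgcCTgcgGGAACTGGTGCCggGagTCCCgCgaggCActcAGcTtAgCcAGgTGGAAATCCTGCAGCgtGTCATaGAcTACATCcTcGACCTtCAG
Over this stretch 86 of 120 bases (71.7%) were identical. The longest run of identical bases between any annotated transcripts of the family was 19 for Id2 and Id3, 12 for Id1 and Id3 and 11 for Id1 and Id2. Id4, the remaining gene of the family and not a member, had 10 and 6 counts in IVS and 1 and 2 with diosmin, too few to be tested.

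**Figure D3:**
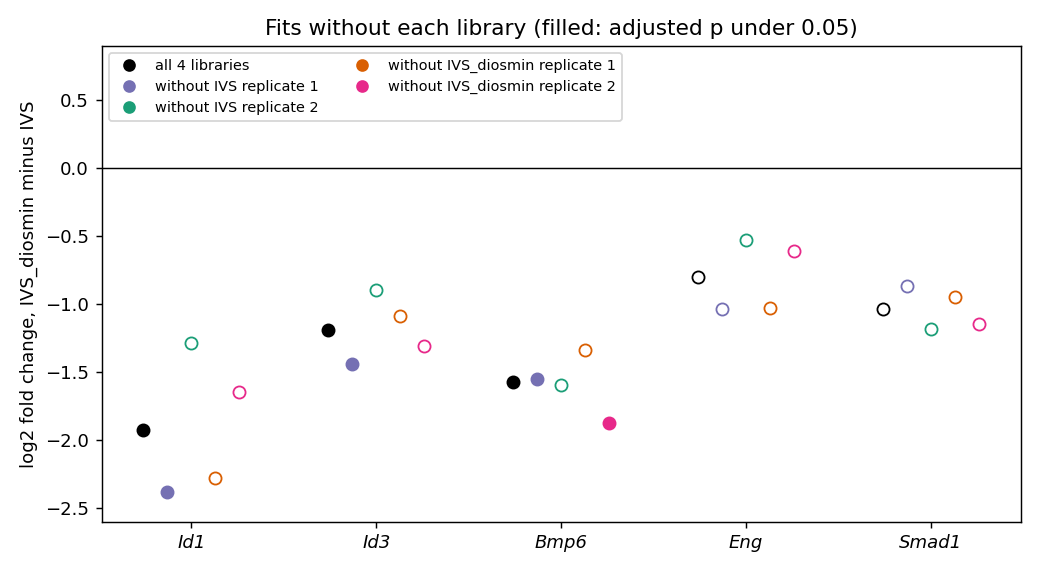
Log2 fold change of Id1, Id3, Bmp6, Eng and Smad1 with all 4 libraries and with each library left out in turn; filled points have an adjusted p under 0.05 (edgeR). Every point lies below 0, Id1 ranges from -2.38 to -1.28, and none of the 5 genes is filled without IVS replicate 2 or without IVS_diosmin replicate 1.

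Per length, as CPM divided by the exonic length in kilobases (RPKM), Id1 was the highest member in both groups. In IVS the order of mean levels was Id1 (49.3 RPKM), Eng (19.4), Id3 (13.6), Acvrl1 (5.52), Smad1 (1.64), Bmpr2 (1.29), Smad7 (1.03), Id2 (0.757) and Smad6 (0.620). The IVS libraries of Id1 (31.4 and 67.3 RPKM) lay above those of Eng (16.0 and 22.8). Neighbours in this order overlapped between libraries for Eng and Id3 (11.0 and 16.1) and for Id2 (0.680 and 0.833) and Smad6 (0.428 and 0.811), and the other neighbours did not. With diosmin Id1 (15.8 and 10.1 RPKM) overlapped with Eng (12.8 and 9.47). The lower members then ran from Bmpr2 (1.67 RPKM) and Smad6 (1.03) to Smad1 (0.802), Id2 (0.630) and Smad7 (0.609), so Smad6 went from the lowest tested member to the sixth. Its diosmin libraries (0.866 and 1.19 RPKM) overlapped with those of Bmpr2 (1.18 and 2.17) and lay above those of Smad1 (0.751 and 0.854).

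Of the wider pathway, 51 other genes were listed and 38 tested; 1 fell and none rose, against 2.96% of all tested genes called. Their median log2 fold change was -0.06. Bmp6 (chromosome 13, 38345107 to 38500302, plus strand) is a BMP ligand best known as the signal that endothelial cells of the liver send for iron balance. It was at 18.1 and 17.6 CPM in IVS and at 4.93 and 7.08 CPM with diosmin, so the groups lay far apart. The mean went from 17.9 ± 0.3 to 6.01 ± 1.52 CPM (SD, n = 2 each), and Bmp6 fell by 1.57 ± 0.28 on the log2 scale (SE, adjusted p = 0.0121 in edgeR). It passed without IVS replicate 1 and without IVS_diosmin replicate 2, and missed without IVS replicate 2 (-1.59, adjusted p = 0.0713) and without IVS_diosmin replicate 1 (-1.33, adjusted p = 0.156). Exons of Bmp6 overlap those of Txndc5 on the other strand over 224 of 3900 bases. Txndc5 was at 25.2 and 30.3 CPM in IVS and at 17.9 and 14.4 CPM with diosmin (log2 -0.78 ± 0.23 SE, adjusted p = 0.0923), and its part in the Bmp6 count was not tested.

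Of the 13 listed ligands 5 were tested. Bmp4, the next most abundant per length, was at 5.03 and 6.99 CPM in IVS and at 6.94 and 3.68 CPM with diosmin (log2 -0.18, adjusted p = 0.877). Gdf2 and Bmp10, which code for the circulating ligands of ALK1, BMP9 and BMP10, had 0 counts in all 4 libraries. These ligands are known to come from liver and heart.

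Of 10 other receptors and co-receptors none passed. Hfe2, the gene of hemojuvelin, a BMP co-receptor of skeletal muscle and liver, was the most abundant of them per length and was at 412 and 370.0 CPM in IVS and at 491 and 581 CPM with diosmin (log2 0.46 ± 0.21 SE, adjusted p = 0.285). Bmpr1a, the broadly used type I receptor ALK3, was at 26.0 and 20.2 CPM against 21.1 and 30.7 CPM (log2 0.16, adjusted p = 0.806). Hfe2 libraries did not overlap between groups; those of Bmpr1a did.

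Of 6 transducers and regulators none passed in edgeR, and 5 had higher values with diosmin. Ppm1a, a protein phosphatase that acts on SMADs, came closest, at 30.3 and 42.7 CPM in IVS and at 59.0 and 79.8 CPM with diosmin (log2 0.93 ± 0.24 SE, adjusted p = 0.0566). It passed in DESeq2 (adjusted p = 0.0157) and in edgeR with other filters on low counts (adjusted p = 0.0492 with a mean CPM of at least 1, and 0.00241 with no filter). Fkbp1a, whose product FKBP12 holds type I receptors inactive and also binds the calcium release channel of muscle, was at 68.5 and 77.7 CPM against 52.8 and 65.8 CPM (log2 -0.30, adjusted p = 0.515).

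None of 11 tested antagonists and modulators passed. Twsg1, a secreted BMP-binding protein, was at 15.7 and 16.0 CPM against 14.6 and 14.2 CPM, and Nbl1, of the DAN family of antagonists, at 5.66 and 7.64 CPM against 4.01 and 5.35 CPM. Neither difference exceeded its error enough to pass (adjusted p = 0.823 and 0.534). Fst, the activin and BMP antagonist follistatin, chosen after its values were seen, rested on 4 and 6 counts in IVS and 14 and 15 with diosmin (log2 1.59 ± 0.88 SE, adjusted p = 0.403).

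Of 6 other BMP targets tested none passed; 4 had lower and 2 higher values. Tmem100, a membrane protein that ALK1 signalling induces in endothelium, was at 14.5 and 9.75 CPM in IVS and at 22.7 and 16.5 CPM with diosmin, higher in both diosmin libraries (log2 0.68 ± 0.27 SE, adjusted p = 0.216). Hes1, a target that Notch also drives, was at 16.6 and 13.3 CPM against 11.95 and 8.19 CPM (log2 -0.57, adjusted p = 0.319). Hey1, another target of both pathways, singled out here once its values were known, had 5.43 and 9.10 CPM against 3.86 and 2.29 CPM (log2 -1.24 ± 0.41 SE, adjusted p = 0.139).

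**Figure D4:**
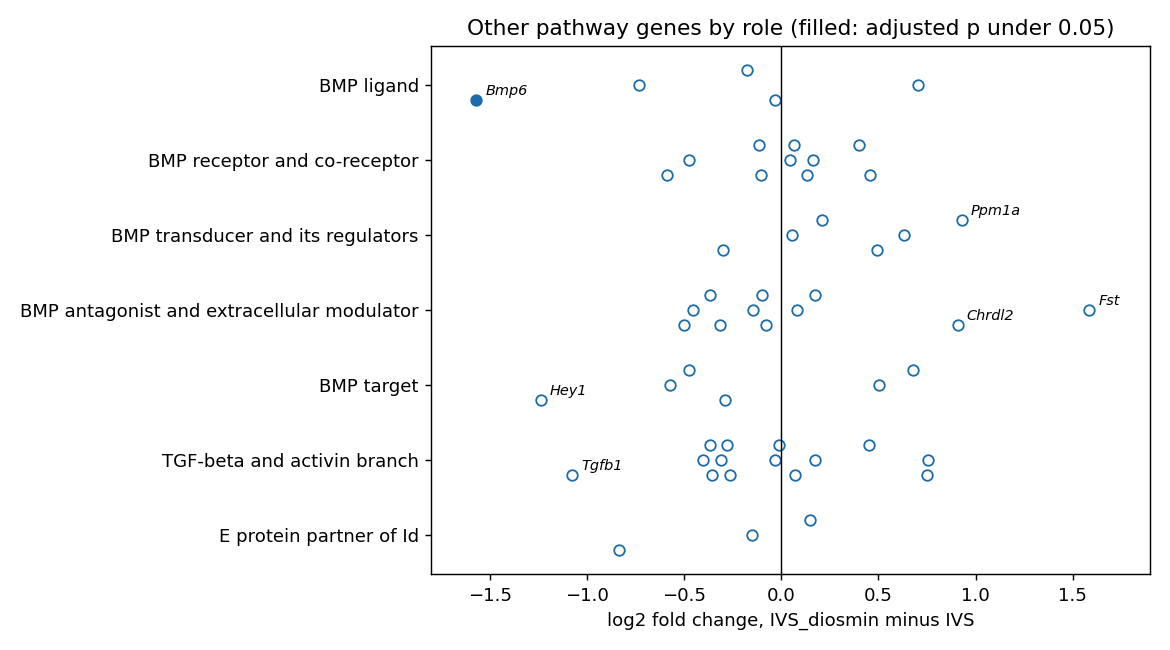
Log2 fold change of IVS_diosmin minus IVS for each tested gene of the wider BMP pathway, of the TGF-beta and activin branch and of the E proteins, by role; filled points have an adjusted p under 0.05, and genes called or beyond 0.9 in either direction are named. Bmp6, at -1.57, is the 1 filled point.

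In the TGF-beta and activin branch, which signals through other SMADs, 0 of 14 tested genes passed in edgeR. Smad3 had 121 and 93.0 CPM in IVS and 104 and 138 CPM with diosmin (log2 0.18, adjusted p = 0.773), and Mstn, the muscle growth inhibitor myostatin, 26.1 and 22.4 CPM against 19.0 and 47.1 CPM (log2 0.45, adjusted p = 0.640). Tgfb1, the ligand TGF-beta 1, also chosen after its values were seen, had 5.83 and 7.56 CPM against 2.78 and 3.54 CPM (log2 -1.08 ± 0.37 SE, adjusted p = 0.153). Tgfb3, another ligand, had 8.63 and 10.1 CPM against 15.96 and 15.4 CPM (log2 0.75, adjusted p = 0.142), and Pmepa1, a target that feeds back on this branch, 6.23 and 8.61 CPM against 12.8 and 12.2 CPM (log2 0.75, adjusted p = 0.192), so values without overlap lay on both sides. None of the 3 E proteins, bHLH factors that Id proteins bind, passed. Tcf12 was lower in both diosmin libraries, at 12.6 and 14.2 CPM against 8.02 and 7.01 CPM (log2 -0.84 ± 0.27 SE, adjusted p = 0.128). Tcf3 was at 15.7 and 8.45 CPM against 14.7 and 12.4 CPM (log2 0.15, adjusted p = 0.865), and Tcf4 at 50.8 and 42.6 CPM against 49.6 and 34.6 CPM (log2 -0.15, adjusted p = 0.809).

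Most members are endothelial genes in part, so their levels were set beside endothelial markers. Of 18 such markers, none of them a member, 8 fell and none rose, 16 had lower values, and the median log2 fold change was -0.92. Cdh5, the endothelial junction cadherin, fell by 1.34 (log2, adjusted p = 0.00491 in edgeR), and Pecam1, an adhesion molecule of the same cells, fell by 1.04 (adjusted p = 0.0195). Vwf (log2 0.11) and Ushbp1 (log2 0.28) had higher values, and both diosmin libraries of Ushbp1 lay above both IVS libraries. Log2 values over the list ran from -1.62 for Sox18 to 0.28 for Ushbp1. Id3 (-1.19) and Bmp6 (-1.57) lay inside this range, and Id1 (-1.93) lay below it. Summed over the list, the level was 895 and 1010 CPM in IVS and 627 and 548 CPM with diosmin, a log2 difference of -0.70. In bulk muscle, fewer endothelial cells and less RNA of these genes per cell cannot be told apart. The differences from the list given next carry no test; with 2 libraries against 2, an exact permutation test cannot go below p = 0.333.

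As a percentage of the endothelial sum, Id1 stood at 4.07% and 7.73% in IVS and at 2.93% and 2.14% with diosmin. Both diosmin libraries stayed below both IVS libraries, by a log2 difference beyond that of the list of -1.23, and of -0.67 without IVS replicate 2. Id3 stood at 2.20% and 2.86% against 1.58% and 2.08%, a narrower gap (-0.50, with -0.28 without IVS replicate 2 and -0.30 without IVS_diosmin replicate 1). Bmp6 stood at 2.03% and 1.75% against 0.788% and 1.29% (-0.88, with -0.54 without IVS_diosmin replicate 1). Against the mean of log2 CPM over the list, the differences were smaller, at -1.05 for Id1, -0.36 for Id3 and -0.78 for Bmp6. Ushbp1 is part of the sum and moved against the list, at 85.0 and 93.7 CPM in IVS and 119.3 and 98.0 CPM with diosmin. With Ushbp1 left out of the sum, the Id3 groups overlap, while those of Id1 and of Bmp6 stay apart. The narrow gap of Id3 thus rests on that marker.

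Among receptors and SMADs, 4 overlapped between groups on this scale and 2 were higher. Eng stood at 7.21% and 9.13% in IVS and at 8.26% and 6.99% with diosmin, with overlapping groups and a log2 difference of -0.10 from the list, which changed sign without IVS replicate 2 (0.09). Acvrl1 (0.21, or 0.02 to 0.45 without 1 library), Smad1 (-0.34, or -0.57 to -0.09 without 1 library) and Smad7 (-0.06, or 0.04 against the mean of log2 CPM over the list) overlapped as well. Smad6 went from 0.153% and 0.258% to 0.443% and 0.696% (1.43). Bmpr2 went from 2.82% and 2.11% to 3.38% and 7.10% (1.07, and 0.47 without IVS_diosmin replicate 2). Both were thus higher beside the endothelial list in every diosmin library. The list sum itself changed by log2 -0.70, so a gene with unchanged CPM comes out higher on this scale. In CPM, Bmpr2 overlapped between groups. Id2, at 0.185% and 0.201% against 0.246% and 0.279%, differed from the list by 0.43, although its CPM was lower in both diosmin libraries.

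**Figure D5:**
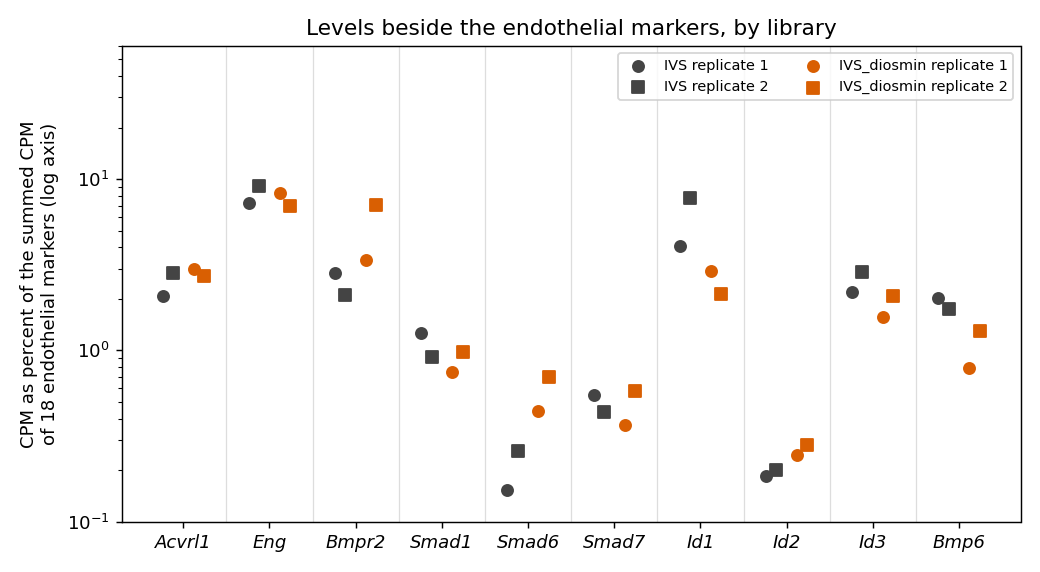
CPM of each tested member and of Bmp6 as a percentage of the summed CPM of 18 endothelial markers in the same library, on a log axis, with IVS in grey and IVS_diosmin in orange. Id1, Id3 and Bmp6 are lower in both diosmin libraries than in both IVS libraries, Bmpr2, Smad6 and Id2 are higher, and Acvrl1, Eng, Smad1 and Smad7 overlap.

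Markers of other cells that express Id or BMP genes were measured beside these. Of 11 tested smooth muscle and pericyte genes none passed, and the list summed to between 339 and 378 CPM in the 4 libraries. Satellite cell and myogenic genes, 0 of 8 past the threshold, summed to between 56.9 and 86.2 CPM. Among 8 fibro-adipogenic progenitor genes 1 fell, Cd34, which endothelium also expresses, with sums of 146 and 251 CPM in IVS and of 190 and 171 CPM with diosmin. None of 8 macrophage, 6 Schwann cell, 3 lymphatic endothelial, 3 adipocyte and 4 erythrocyte genes tested passed. Macrophage genes summed to between 20.98 and 47.0 CPM, and lymphatic genes to between 5.35 and 11.3 CPM. Within the lymphatic list values lay on both sides. Prox1, a factor of lymphatic endothelium, had 2 and 0 counts in IVS and 42 and 8 with diosmin, too few to be tested. Flt4, a receptor of lymphatic endothelium, was at 7.26 and 8.61 CPM against 4.93 and 3.06 CPM (log2 -0.99, adjusted p = 0.175 in edgeR). Which cells of the bulk muscle held the Prox1 counts was not tested.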

How the data were processed

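For each library the authors deposited unnormalised gene counts, made with HISAT2 2.1.0 and HTSeq on mm10, per the submitters' processing notes. The HTSeq version, annotation release, strand setting and filters are not given in the sources used here. Of the reads each file accounts for, 24.9% to 27.7% lay in genes; the 5 summary lines, which name no gene, stayed out of library sizes and tests. Of 55401 identifiers 55141 matched GENCODE M21, which gave symbols, mm10 positions and exonic lengths. Differences were tested in R 4.3.3 by edgeR 4.0.16 (filterByExpr, TMM, robust quasi-likelihood fit, 2-sided). A run on simulated data checked only that median log2 fold changes were recovered, not the rate of false calls. The simulation assumed less variation between libraries than these data showed. The standard error is the log2 fold change divided by the square root of F. The common biological coefficient of variation was 0.235. Alternatives were RLE size factors, DESeq2 1.42.0, no filter and a stricter filter, the replicate number as a block, omission of rRNA-like genes, and omission of each library. Replicates differed by more than sampling noise (chi-square over its degrees of freedom 28.6 in IVS and 19.7 in IVS_diosmin). Counts from PCR-amplified libraries are not independent molecules. Named were the 10 members and, from each pathway list, genes with an adjusted p under 0.05 and the 2 highest tested genes per length; from marker lists, at most 2 called genes as examples. Smad5, Id4, Gdf2, Bmp10, Fst, Hey1, Tgfb1, Tgfb3, Pmepa1, Tcf12, Prox1, Flt4 and genes sharing exonic bases with a named gene were named outside this rule, after their values were seen. So were the endothelial markers Vwf, Ushbp1 and Sox18. Members and lists were chosen with earlier results of these data known.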

Additional observations from a re-analysis of the deposited data

How the results depend on the processing

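The number of genes past the threshold was 400 in the fit reported, 919 with no filter on low counts, 93 with the replicate block and 38 to 366 when 1 library was left out. Of members 2 passed, 0 with the replicate block and 0 to 2 without 1 library; DESeq2 and the fit with no filter added Eng. Of the other BMP pathway genes 1 passed, 2 in DESeq2 and with a mean CPM of at least 1 (Ppm1a added), 3 with no filter (Ppm1a and Hey1 added), 0 with the replicate block and 0 to 1 without 1 library. With the block the log2 fold changes were -1.85 for Id1, -1.17 for Id3 and -1.59 for Bmp6 (adjusted p = 0.125, 0.0950 and 0.0785 in edgeR). Replicate numbers are shared by the labels without a stated pairing, and same-numbered libraries did not deviate together (correlation 0.0115 across genes). Leaving out the rRNA locus CT010467.1, chosen after seeing the data, gave 392 genes and the same 2 members, Id1 and Id3; this says nothing on the RNA differences it moves with. Differences that missed the threshold changed sign without 1 library, over ranges of log2 -0.15 to 0.74 for Bmpr2, -0.70 to 0.20 for Bmp4, -0.15 to 0.41 for Bmpr1a, -0.36 to 0.96 for Mstn, -0.0617 to 0.38 for Smad3, -0.23 to 0.67 for Tcf3 and -0.43 to 0.0683 for Tcf4. Beside the endothelial list, Eng ranged from -0.25 to 0.0882 and Smad7 from -0.40 to 0.25 without 1 library, and against the mean of log2 CPM they stood at 0.0223 and 0.0416. The causes were not tested. RLE size factors moved the median log2 fold change by 0.00357. With 20 to 55 counts per library, Id2 and Smad6 are limited by depth.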
